A study of Mus musculus with 6 samples.

Results

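The transcription factor AP-1 is a dimer of a Jun protein with a Fos protein or with a second Jun protein, and the subject here is the 7 genes that encode these proteins in mouse CD8+ T cells. The 7 genes were fixed by name: Fos, Fosb, Fosl1 and Fosl2 on the Fos side, and Jun, Junb and Jund on the Jun side. All probe sets annotated to exactly these symbols were taken, which gave 11 probe sets out of 45037, and the 7 genes are among 18193 genes on the array. For each gene the probe set with the highest mean over the 6 arrays was the main one, and the other 4 probe sets served as a check.

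The arrays were Affymetrix mouse 430 2.0 arrays, 1 for each of 6 RNA samples. The samples were CD8+ T cells described as naive, from spleens of mice of the strain given as C57/BL6. One set came from wild-type mice (Nrdp1+/+) and the other from mice labelled Nrdp1-/-, which lack the ubiquitin ligase Nrdp1 that the gene Rnf41 encodes. In each genotype the cells were left untreated, or were stimulated for 4 h or 8 h with anti-CD3 coated at 5 µg/ml together with anti-CD28 in solution at 1 µg/ml. The question the design addresses is how the response to stimulation runs with and without Nrdp1. In the treatment field of each stimulated sample anti-CD28 alone is named. The labels do not give the age of the mice, how the allele was made, or how many mice gave each RNA. There is no replicate of any genotype at any condition, so an error below is the spread left after additive terms for condition and genotype, and that spread may be technical.

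AP-1 proteins share a basic region that contacts DNA and a leucine zipper that holds the dimer together. Jun proteins can pair with each other, whereas Fos proteins need a partner, usually a Jun protein. In T cells, signals from the antigen receptor and CD28 reach Fos through the ERK kinases and serum response factor, and reach Jun through the JNK kinases. AP-1 then acts with NFAT proteins at genes such as Il2. Fos and Jun are textbook immediate early genes, while Jund is known for being present in resting cells.

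The promoters of Fos, Jun and Junb are shown because these 3 genes were higher than in untreated cells at both times. Each run covers 250 bases before to 50 bases after the RefSeq start on GRCm38.p6, written 5′ to 3′ on the strand of the gene. Capitals mark every match to the motifs searched. Fos lies at chr12:85473890-85477274 and its promoter window at chr12:85473640-85473939 on the plus strand. Jun lies at chr4:95049036-95052222 and its window at chr4:95052173-95052472 on the minus strand. Junb lies at chr8:84976909-84978748 and its window at chr8:84978699-84978998 on the minus strand.
Fos: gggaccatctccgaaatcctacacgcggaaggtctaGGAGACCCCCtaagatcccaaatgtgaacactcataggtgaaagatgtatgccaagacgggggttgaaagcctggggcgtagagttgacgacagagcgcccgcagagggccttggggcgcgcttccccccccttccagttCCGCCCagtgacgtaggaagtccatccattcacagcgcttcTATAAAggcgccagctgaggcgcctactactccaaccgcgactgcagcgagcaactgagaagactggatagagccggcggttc
Jun: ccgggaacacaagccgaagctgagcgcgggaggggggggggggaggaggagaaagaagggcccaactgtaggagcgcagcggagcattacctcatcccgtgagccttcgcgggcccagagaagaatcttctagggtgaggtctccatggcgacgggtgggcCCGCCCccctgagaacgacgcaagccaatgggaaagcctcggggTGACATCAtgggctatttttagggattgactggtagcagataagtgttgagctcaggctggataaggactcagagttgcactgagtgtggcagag
Junb: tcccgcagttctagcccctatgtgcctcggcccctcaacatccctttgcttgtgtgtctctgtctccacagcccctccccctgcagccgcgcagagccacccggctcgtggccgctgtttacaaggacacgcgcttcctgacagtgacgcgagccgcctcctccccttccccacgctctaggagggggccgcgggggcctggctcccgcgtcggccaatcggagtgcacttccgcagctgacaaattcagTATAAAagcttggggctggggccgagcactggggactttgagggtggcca

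In these windows, the Fos promoter held a TATA box (TATAAA) from -33 to -28 and a GC box (GGGCGG, here on the opposite strand) from -74 to -69, counted from the RefSeq start. It also held a match to the NF-kB site from -214 to -205. The Jun promoter held the Jun variant of the AP-1 site (TGACATCA) from -45 to -38, the element through which Jun is known to act on its own promoter, and a GC box from -89 to -84. The Junb promoter held a TATA box from 1 to 6, which is after the annotated start. Of the 7 genes, 6 had an entry in the promoter table. Among those 6, Jun alone matched TGACATCA, which 4.18% of 27025 genes with such a window matched on either strand. TATAAA was in 2 of the 6 and in 15.7% of all genes, and GGGCGG was in 4 of the 6 (Fos, Fosb, Fosl2 and Jun) and in 38.2% of all. The NF-kB site was in 3 (Fos, Fosb and Fosl2) and in 9.55% of all. The cyclic AMP response element (TGACGTCA, 2.03% of all genes), the AP-1 site (TGANTCA, 8.97%) and the CArG box bound by serum response factor (1.81%) were in 0 of the 6. These are matches of letters in a short window and say nothing about sites outside it.

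Values are MAS5 signals on a linear scale, which the authors had scaled so that the trimmed mean was 500.0 on every array, and array medians lay between 61.5 and 68.6. The CD8 T cell markers examined (7 of 8 on the array) were at or above the array median on every array, with summed signals between 62459 and 74933. The 3 CD4 T cell markers were below the array median on every array, with sums between 40.4 and 107. Because the extraction text in the labels names colon, 11 colon markers were also read: 2 to 4 of them reached the median on an array, Epcam among them, while Cdx2 did not on any, and their sums lay between 757 and 1236. The targeted gene Rnf41 had signals of 728, 505 and 639 in wild-type cells (untreated, 4 h, 8 h) and 528, 437 and 477 in Nrdp1-/- cells for the brightest of its 4 probe sets. The mean log2 difference was -0.36 ± 0.12 (SE, 6 arrays; limma, adjusted p = 0.128). The third in brightness had signals of 181, 166 and 161 in wild-type cells and 54.5, 70.9 and 83.7 in Nrdp1-/- cells. The other 2 were higher in Nrdp1-/- cells at 4 h: the second read 224, 130 and 203 in wild-type and 201, 180 and 162 in Nrdp1-/- cells, and the dimmest 56.0, 29.1 and 20.3 against 51.7, 43.7 and 26.7. The sources used here do not say which exons the allele removes, so no probe set can serve as a check of the labels.

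The 7 genes fell into a bright and a dim group. Fos, Fosl2, Jun, Junb and Jund were above the array median on all 6 arrays and were tested. The main probe sets of Fosb and Fosl1 each reached the array median on 1 array, below the minimum of 2 arrays, and were not tested. The plot of signals by array shows all 11 probe sets.

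**Figure D1:**
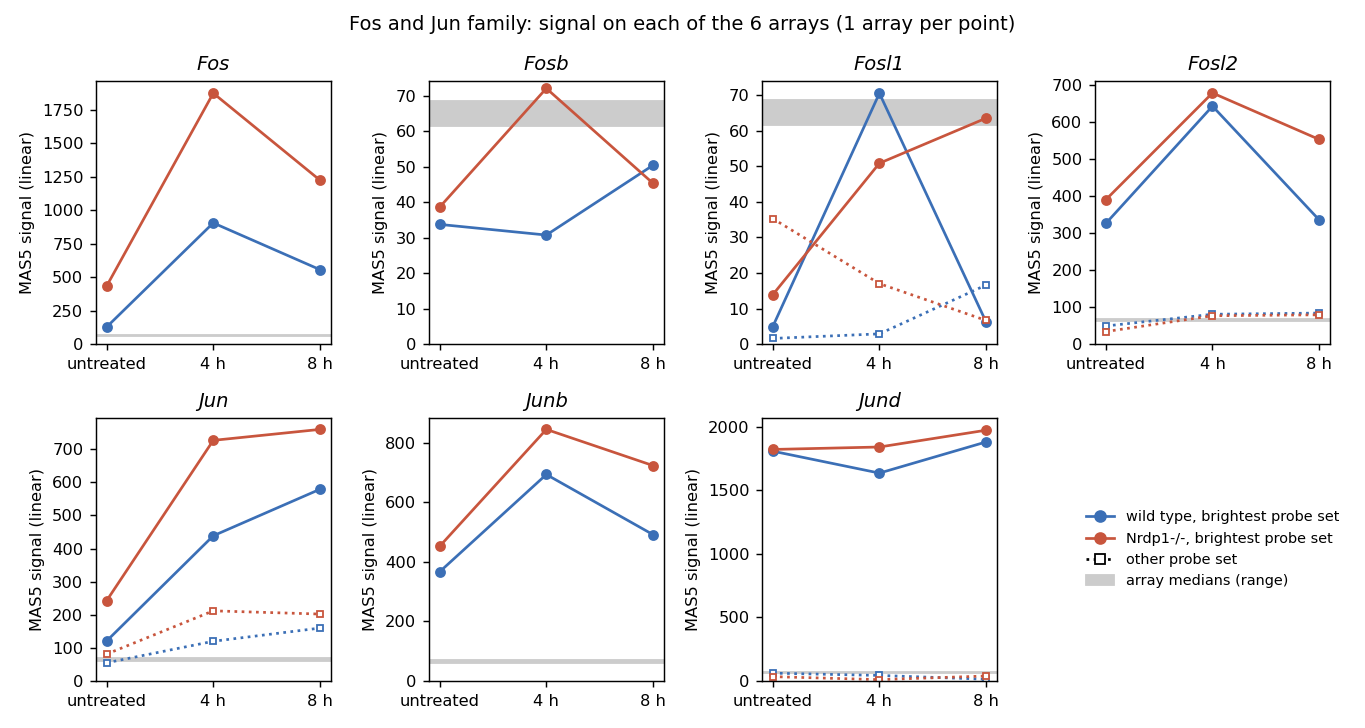
Signal of each Fos and Jun family probe set (MAS5, linear scale, y axis from 0) in untreated cells and after 4 h and 8 h of stimulation (x axis), 1 array per point, wild type in blue and Nrdp1-/- in red. The main probe sets (filled circles, solid lines) of Fos, Jun, Junb and Fosl2 were higher at 4 h than in untreated cells in both genotypes, Jund stayed between 1637 and 1974, and Fosb and Fosl1 lay near or below the array medians (grey band).

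Fos, the founding member whose protein pairs with Jun, showed the widest range of the tested genes on the log2 scale. Its signal in wild-type cells was 128 untreated, 906 at 4 h and 557 at 8 h. In Nrdp1-/- cells it was 433, 1875 and 1225. The 2 untreated arrays were the lowest and did not overlap with the 4 stimulated ones, and at every condition the Nrdp1-/- array was the higher one. The untreated Nrdp1-/- value stood closer to the wild-type value at 8 h than to untreated wild type.

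Jun, which encodes c-Jun, the partner of Fos, was highest at 8 h in both genotypes on its main probe set. In wild-type cells its signal was 120 untreated, 439 at 4 h and 579 at 8 h, and in Nrdp1-/- cells 242, 727 and 760. Here too the untreated arrays were below all stimulated ones and Nrdp1-/- was higher at each condition. The highest wild-type array was the one at 8 h, and both stimulated Nrdp1-/- arrays lay above it. A second, dimmer probe set for Jun was also lowest in untreated cells and higher in Nrdp1-/- cells at each condition, but in Nrdp1-/- cells it was highest at 4 h and not at 8 h. It was at 54.7, 120 and 160 in wild-type cells and at 80.9, 212 and 202 in Nrdp1-/- cells.

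Junb encodes a Jun protein that also pairs with BATF proteins in T cells. Its signal was 366, 693 and 491 in wild-type cells and 452, 845 and 723 in Nrdp1-/- cells, in the order untreated, 4 h and 8 h. The peak was at 4 h in both genotypes, and the untreated arrays again lay below the stimulated ones.

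Fosl2 encodes Fra-2, a Fos protein that lacks the strong activation domain of c-Fos. It was at 326, 642 and 335 in wild-type cells and at 390, 678 and 553 in Nrdp1-/- cells. The wild-type signal at 8 h lay below that of untreated Nrdp1-/- cells, so the stimulated and untreated arrays overlapped for this gene. The second Fosl2 probe set was dim and did not share the shape: it read 49.1, 80.8 and 84.0 in wild-type cells and 34.1, 76.8 and 79.3 in Nrdp1-/- cells, with Nrdp1-/- the lower of the pair at every condition.

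Jund, which encodes the Jun protein of resting cells, varied least. Its signal was 1809, 1637 and 1882 in wild-type cells and 1823, 1842 and 1974 in Nrdp1-/- cells. The untreated arrays lay inside the range of the stimulated ones. A second Jund probe set was below the array median on all 6 arrays, between 10.1 and 61.1, and gave no order that can be read.

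Fosb and Fosl1 encode the remaining Fos proteins, FosB and Fra-1. Fosb was at 33.7, 30.7 and 50.4 in wild-type cells and at 38.6, 72.1 and 45.3 in Nrdp1-/- cells. It reached the array median in Nrdp1-/- cells at 4 h alone. Fosl1 was at 4.93, 70.5 and 6.24 in wild-type cells and at 13.9, 50.8 and 63.5 in Nrdp1-/- cells, and it reached the median in wild-type cells at 4 h alone. A second Fosl1 probe set was below the median on all arrays, between 1.62 and 35.3, and was highest in untreated Nrdp1-/- cells. The pair of Fosl1 probe sets thus put different arrays on top, and no fold is given for either gene. Fitted without the filter, the 4 h change was 2.30 for Fosl1 (limma, adjusted p = 0.147) and 0.36 for Fosb (adjusted p = 0.849).

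After 4 h of stimulation Fos, Jun, Junb and Fosl2 had risen. Differences below are on the scale of log2(signal + 4.45), each with its SE over 6 arrays. Fos rose by 2.44 ± 0.17, which is 5.43-fold (limma, adjusted p = 4.48e-06), and Jun by 1.70 ± 0.18, which is 3.24-fold (adjusted p = 0.000114). Junb rose by 0.90 ± 0.14 (1.87-fold, adjusted p = 0.00192) and Fosl2 by 0.88 ± 0.18 (1.84-fold, adjusted p = 0.00735). Jund was at -0.06 ± 0.11 with a 95% interval from -0.30 to 0.17 (adjusted p = 0.762), so a change beyond that interval was not seen while a smaller one cannot be told from none. Among 10838 genes ordered by their change, Fos ranked 46 from the top, Jun 130, Junb 455 and Fosl2 471.

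Thus 4 of 5 tested genes of the family were called higher at 4 h and 0 lower, where a gene is called at an adjusted p under 0.05. Over all genes 8.01% were called higher and 5.51% lower. The median change was 0.90 in the family and -0.05 over all genes tested. The second Jun probe set, in a fit over 23968 single probe sets, rose by 1.21 ± 0.29 (limma, adjusted p = 0.0315). The second Fosl2 probe set was at 0.87 ± 0.45 there and did not pass (adjusted p = 0.286). In that fit 4.84% of probe sets were higher and 2.75% lower. Without the intensity trend in the variance model Fos alone of the 5 remained called at 4 h. The call of Fosl2 was also lost without the wild-type array at 4 h (0.68, adjusted p = 0.0670) and with the mean of its probe sets (0.88, adjusted p = 0.0501).

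At 8 h Jun and Fos were still well above untreated cells, and Junb by less. Jun was higher by 1.93 ± 0.18 (3.81-fold; limma, adjusted p = 3.77e-05), Fos by 1.79 ± 0.17 (3.45-fold, adjusted p = 5.18e-05) and Junb by 0.55 ± 0.14 (1.46-fold, adjusted p = 0.0226). Fosl2 was at 0.27 ± 0.18 (95% interval -0.12 to 0.66, adjusted p = 0.324) and Jund at 0.09 ± 0.11 (-0.15 to 0.32, adjusted p = 0.632). Both times are compared with the same pair of untreated arrays. In all 3 of 5 genes were called higher and 0 lower, against 9.88% of all genes higher and 9.26% lower, with a median of 0.55 in the family and -0.07 over all genes. The second Jun probe set was higher by 1.37 ± 0.29 (adjusted p = 0.0148) and the second Fosl2 probe set was at 0.92 ± 0.45 (adjusted p = 0.223). Among single probe sets 6.38% were higher and 4.65% lower. The Junb call was lost without the untreated wild-type array (0.61, adjusted p = 0.0505), the untreated Nrdp1-/- array (0.49, adjusted p = 0.183) or the 8 h Nrdp1-/- array (0.41, adjusted p = 0.244). Without the intensity trend Jun alone remained called.

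**Figure D2:**
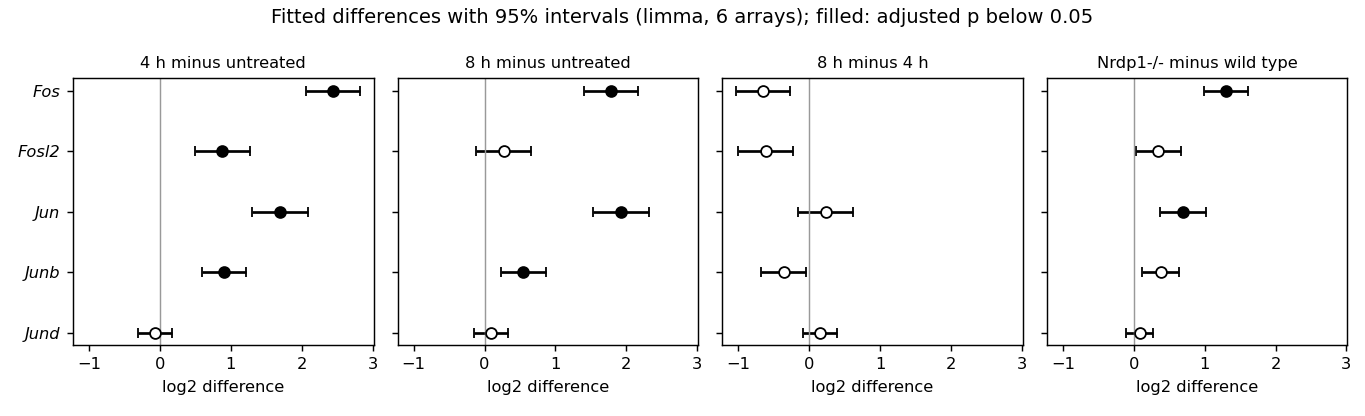
Fitted log2 differences (x axis) of the 5 tested genes (y axis) in 4 comparisons, with 95% intervals from limma over 6 arrays. Filled points had an adjusted p under 0.05: Fos, Fosl2, Jun and Junb at 4 h, Fos, Jun and Junb at 8 h, none between 4 h and 8 h, and Fos and Jun between genotypes.

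From 4 h to 8 h the fitted differences of Fos, Fosl2 and Junb were below 0 and those of Jun and Jund above it. They were -0.65 ± 0.17 for Fos (limma, adjusted p = 0.258), -0.61 ± 0.18 for Fosl2 (adjusted p = 0.332) and -0.36 ± 0.14 for Junb (adjusted p = 0.529). Jun was at 0.23 ± 0.18 (adjusted p = 0.803) and Jund at 0.15 ± 0.11 (adjusted p = 0.787). The second Fosl2 probe set was at 0.05 ± 0.45 (adjusted p = 0.992) and the second Jun probe set at 0.17 ± 0.29 (adjusted p = 0.948) in the fit over single probe sets. None of the 5 genes passed, although 3 were lower at an unadjusted p under 0.05, and over all genes 0.0185% were called higher and 0.0277% lower. Fos had a negative difference in both genotypes, at -0.70 in wild-type and -0.61 in Nrdp1-/- cells. The fitted Fos difference stayed at -0.65 without either untreated array, since the untreated arrays do not enter it. Fos was called in those fits, which have fewer residual degrees of freedom and their own variance prior. The call thus turned on the variance fit and not on the estimate. Fosl2 was at -0.93 in wild-type cells and at -0.29 in Nrdp1-/- cells, differences of single arrays that have no test.

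Nrdp1-/- cells had more Fos and Jun transcript than wild-type cells. Over the 3 conditions Fos was higher by 1.30 ± 0.14 (2.46-fold; limma, adjusted p = 0.000228) and Jun by 0.70 ± 0.15 (1.62-fold, adjusted p = 0.0181), each in 3 of 3 conditions. Junb (0.38 ± 0.12, adjusted p = 0.107) and Fosl2 (0.35 ± 0.14, adjusted p = 0.249) were also above wild type in 3 of 3 conditions but did not pass. Jund was at 0.08 ± 0.09, with a 95% interval from -0.11 to 0.28 (adjusted p = 0.730). It too was above wild type in 3 of 3 conditions, so that count does not set the called genes apart. Ordered by the genotype difference, Fos ranked 110 and Jun 372 of 10838 genes.

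So 2 of 5 tested genes were called higher and 0 lower, where 2.47% of all genes were called higher and 2.57% lower. The median difference was 0.38 in the family and -0.01 over all genes. The second Jun probe set was at 0.55 ± 0.23 and did not pass (adjusted p = 0.314), and the second Fosl2 probe set was on the other side of 0 at -0.21 ± 0.36 (adjusted p = 0.872). Among single probe sets 1.84% were higher and 1.72% lower. Without the untreated Nrdp1-/- array Fos remained higher by 1.09, while Jun, at 0.56, was no longer called. On the 4 stimulated arrays alone the differences were by design the same, 1.09 for Fos and 0.56 for Jun. The untreated array left in the other fit adds nothing to them, so this is no second check. Jun was called there, so its call turned on the variance and the genes tested and not on the estimate. The Jun call was also lost with the mean of its probe sets (0.63, adjusted p = 0.105), and without the intensity trend neither gene was called.

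The genotype difference at each condition can be read from single arrays, without a test. For Fos it was 1.73 in untreated cells (3.39-fold in signal), 1.05 at 4 h (2.07-fold) and 1.13 at 8 h (2.20-fold). For Jun it was 0.98, 0.72 and 0.39 at the same conditions, for Junb 0.30, 0.28 and 0.55, and for Fosl2 0.26, 0.08 and 0.71. Jund stayed between 0.01 and 0.17. On the main probe sets the difference was largest in untreated cells for Fos and Jun and at 8 h for Junb and Fosl2. The other probe sets did not share this: the second Jun probe set was at 0.53, 0.80 and 0.33, largest at 4 h, and the second Fosl2 probe set was at -0.48, -0.07 and -0.08. Each is a difference of 2 arrays with no replicate.

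Seen within a genotype, Fos went up 7.08-fold in signal in wild-type cells at 4 h and 4.33-fold in Nrdp1-/- cells, from a higher start. Jun went up 4.81-fold and 3.14-fold at 8 h, and its log2 changes at 4 h were 1.83 and 1.57. Junb went up 1.89-fold and 1.87-fold at 4 h. A model with an added term for genotype by stimulation put the difference in the Fos change at -0.64 ± 0.29 and in the Jun change at -0.43 ± 0.34. In that model 0 of 5 genes passed (limma, adjusted p = 0.9999 for each), with Fos alone at an unadjusted p under 0.05, and 0.0923% of all genes were called higher and 0.129% lower. An unequal response of the genotypes was not shown for any of the 5 genes.

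**Figure D3:**
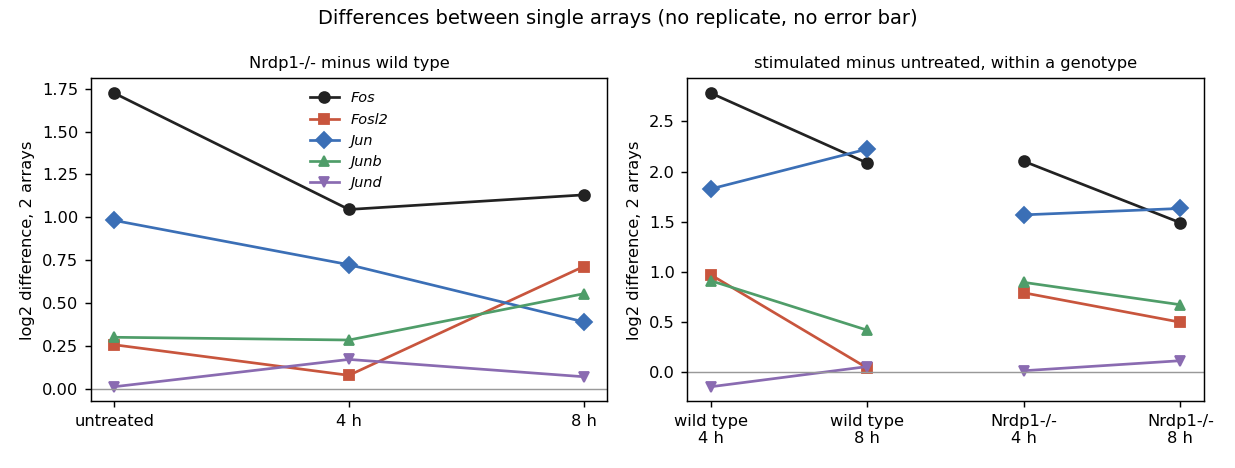
Left, Nrdp1-/- minus wild type at each condition; right, stimulated minus untreated within each genotype at 4 h and 8 h (y axes, log2 differences of 2 arrays, no error bar because there is no replicate). Fos differed most between genotypes in untreated cells (1.73), and Jund (purple) stayed near 0 throughout.

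Markers of other cells moved with genotype and time. Over all genes 2.47% were called higher in Nrdp1-/- cells and 2.57% lower. Of 13 myeloid markers 12 were tested and 7 were higher in Nrdp1-/- cells, with summed signals of 14397, 9258 and 3319 there (untreated, 4 h, 8 h) against 2346, 2250 and 2115 in wild-type cells. Itgam was below the array median on all 6 arrays, while the lysozyme gene Lyz1 was at 5725 in untreated Nrdp1-/- cells and at 632 in untreated wild-type cells. Of 11 B cell markers on the array 9 were tested and all 9 were lower in Nrdp1-/- cells, with sums of 3031 to 3328 against 14402 to 16708, and the defining marker Pax5 lay between 31.9 and 65.1 over the 6 arrays. Of 10 memory-like CD8 T cell markers 7 were higher in Nrdp1-/- cells and 0 lower, with sums of 51489 to 57146 against 43857 to 51057. Klrd1, which makes up a large part of these sums, went the other way without being called. It was at 23185, 19449 and 16549 in wild-type cells and at 20989, 14137 and 13216 in Nrdp1-/- cells. The 2 of 5 NK cell markers on the array summed to between 21.9 and 94.7. Ncr1 was below the array median on all 6 arrays. Klra8 was above it in untreated Nrdp1-/- cells (81.8) and in wild-type cells at 8 h (67.3), and below it on the other arrays. No marker of these lists was at 0. Beside these sums, the Nrdp1-/- minus wild type differences were 1.73, 1.05 and 1.13 for Fos and 0.98, 0.72 and 0.39 for Jun (untreated, 4 h, 8 h). The part of these cells in the Fos and Jun differences was not tested, and in such samples more cells of a type cannot be told from more RNA per cell.

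**Figure D4:**
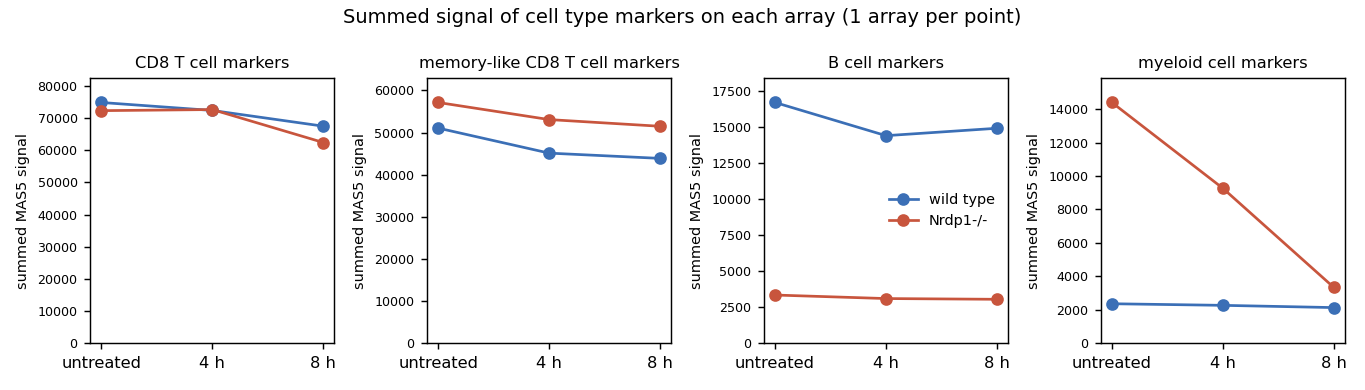
Summed MAS5 signal of cell type markers (y axes from 0) on each array, wild type in blue and Nrdp1-/- in red, at each condition (x axis). CD8 T cell markers were similar, B cell markers were lower in Nrdp1-/- cells at all 3 conditions, and myeloid markers fell from 14397 to 3319 across the Nrdp1-/- arrays.

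Partner proteins were read from a list of 18 genes of the basic leucine zipper class that pair with or compete with Fos and Jun, of which 14 were tested. At 4 h 4 rose and 0 fell, with a list median of 0.19, where 8.01% of all genes were higher and 5.51% lower. The shares were 9.88% and 9.26% at 8 h and 2.47% and 2.57% between genotypes. Atf3, a stress-induced partner of Jun, rose by 1.47 ± 0.25, from 71.8 to 199 in wild-type and from 129 to 383 in Nrdp1-/- cells. The small Maf gene Maff rose by 1.04 ± 0.25, the inducible repressor gene Crem by 0.62 ± 0.18 and Batf, a partner of Junb and Irf4, by 0.60 ± 0.12. At 8 h Atf3 (1.66 ± 0.25), Crem (0.58 ± 0.18) and Mafg (0.51 ± 0.16) were higher and Bach1, which encodes a repressor, was lower (-0.72 ± 0.12), and the list median was 0.26. Between genotypes 0 of 14 passed in limma, with 4 higher and 1 lower at an unadjusted p under 0.05 and a median of 0.12. Jdp2, a repressor that pairs with Jun, had the largest difference there among those named, at 0.71 ± 0.26 (adjusted p = 0.174).

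Of 21 kinases and serum response factors upstream of AP-1, 16 were tested. At 4 h 2 rose and 1 fell, where 8.01% of all genes were higher and 5.51% lower. At 8 h 2 rose and 2 fell, where the shares were 9.88% and 9.26%. The list medians were -0.07 and -0.08, and those over all genes -0.05 and -0.07. Map3k8, which encodes the kinase Tpl2 upstream of ERK, rose by 0.94 ± 0.17 at 4 h and 0.66 ± 0.17 at 8 h. Map2k3, which encodes a p38 activator, rose by 0.91 ± 0.11 and 0.36 ± 0.11. Mrtfa, a coactivator of serum response factor, fell by 0.56 at 4 h and by 0.40 at 8 h, and Mapk14, which encodes p38 alpha, fell by 0.33 at 8 h. Srf itself was at -0.08 ± 0.14 at 4 h (adjusted p = 0.777).

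Between genotypes 2 genes of that list passed, in opposite directions, and its median was -0.00052. Over all genes 2.47% were higher and 2.57% lower. Mapk8, which encodes JNK1, was lower in Nrdp1-/- cells by 0.97 (-0.97 ± 0.12; limma, adjusted p = 0.000769). Its signal was 1131, 1114 and 1093 in wild-type cells and 632, 653 and 441 in Nrdp1-/- cells, with no overlap between genotypes. Mapk9, which encodes JNK2, was at 0.09 ± 0.09 (adjusted p = 0.699). Map3k8 was higher by 0.62 ± 0.14 (adjusted p = 0.0244), at 234, 507 and 351 in wild-type and 376, 647 and 633 in Nrdp1-/- cells.

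Among genes that affect the stability of AP-1 proteins or mRNAs 1 passed, at 4 h, where 8.01% of all genes were higher and 5.51% lower. These shares were 9.88% and 9.26% at 8 h and 2.47% and 2.57% between genotypes. Of 14 tested, Zfp36l1, which encodes an mRNA decay protein, rose at 4 h (0.34 ± 0.10) and 0 fell, with 4 higher and 2 lower at an unadjusted p under 0.05. At 8 h 0 passed in limma, with 1 higher and 2 lower at that level, and between genotypes 0 passed, with 2 and 2. The list medians were 0.06, 0.06 and -0.04. The largest difference at 4 h was in Zc3h12a, which encodes the ribonuclease Regnase-1, at 0.60 ± 0.19 (adjusted p = 0.0548), and it was at 0.43 ± 0.15 between genotypes (adjusted p = 0.162). The ubiquitin ligase gene Nedd4 was at -0.40 ± 0.11 between genotypes (adjusted p = 0.0604). Itch, a ubiquitin ligase that acts on c-Jun and JunB, was at -0.29 ± 0.11 at 4 h (adjusted p = 0.0925), and Zfp36, a decay factor for Fos mRNA, at 0.37 ± 0.12 (adjusted p = 0.0634).

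Most T cell genes on a list with known AP-1 sites were higher after stimulation. Of 13 listed, 9 were tested. Il2, Csf2 and Il2ra were below the array median on both untreated arrays and passed the filter through their stimulated arrays only, so that they had to differ. Of the remaining 6, 5 rose at 4 h and 5 at 8 h, with medians of 3.47 and 3.25, beside 8.01% and 9.88% of all genes. Ccl3, Ifng and Tnf among them were below the median on the untreated wild-type array (52.4, 27.1 and 37.7). They too needed a stimulated array to pass, so their rise is not free of the filter. Cd69 (2.73 ± 0.18 at 4 h) and Fasl (0.83 ± 0.21) were above the median on both untreated arrays and rose. Ctla4, also above it there, was the exception at both times. It was at 0.12 ± 0.13 at 4 h and 0.23 ± 0.13 at 8 h, neither past the threshold. Of those left out, Il2 was at least 42.4-fold and Csf2 at least 7.80-fold higher at 4 h. The chemokine gene Ccl3 rose by 6.02 ± 0.24 and Ifng by 5.25 ± 0.27. Between genotypes 6 of the 9 were higher in Nrdp1-/- cells and 0 lower, with a median of 0.75. Without Il2, Csf2 and Il2ra it was 4 of the 6, with a median of 0.87. Over all genes 2.47% were higher and 2.57% lower. The largest differences were in Ifng (2.09 ± 0.22), Csf2 (1.27 ± 0.28), Ccl3 (1.17 ± 0.20) and Tnf (1.06 ± 0.16), while Il2 was at 0.33 ± 0.13 (adjusted p = 0.200). Ccl3 was the one gene of the list with a genotype by stimulation term past the threshold, at -1.09 ± 0.25 (adjusted p = 0.00811). The term rests on an untreated wild-type signal of 52.4, below the array median, against 207 in untreated Nrdp1-/- cells. Without the intensity trend 0 genes were called for this term.

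Other immediate early genes gave the nearest comparison for Fos and Jun. Of 14 tested, 10 rose and Ier3 fell at 4 h, and likewise 10 and 1 at 8 h, with medians of 1.62 and 1.54. Over all genes 8.01% were higher and 5.51% lower at 4 h, and 9.88% and 9.26% at 8 h. The largest changes at 4 h were in Nr4a3 (4.37 ± 0.15), Nr4a1 (4.03 ± 0.15), Nr4a2 (3.79 ± 0.22) and Egr2 (2.92 ± 0.15), all above the 2.44 of Fos. Between genotypes 7 of the 14 were higher and 0 lower, beside 2.47% and 2.57% of all genes, with a list median of 0.46. The largest were Egr2 (1.16 ± 0.12), Nr4a3 (0.96 ± 0.13), Nr4a2 (0.84 ± 0.18) and Nr4a1 (0.82 ± 0.12). The genotype difference of Fos, 1.30 ± 0.14, was above each of these values, and whether it differed from them was not tested. Of the 14 genes 0 passed from 4 h to 8 h in limma, with 7 lower at an unadjusted p under 0.05.

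**Figure D5:**
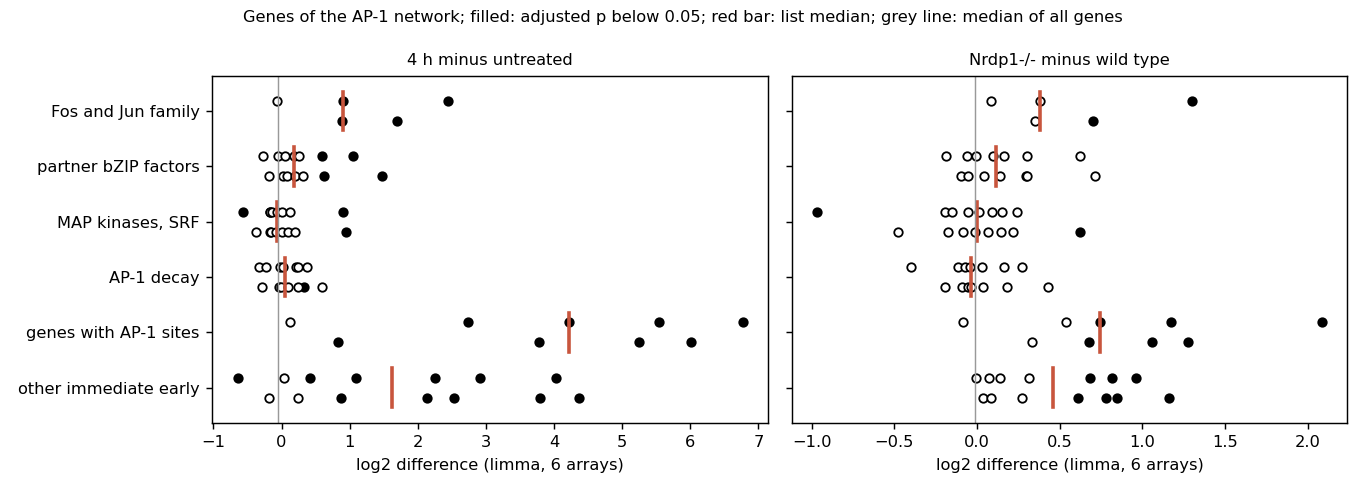
Log2 differences (x axis, limma over 6 arrays) of the tested genes in the Fos and Jun family and 5 lists of the AP-1 network (y axis), at 4 h against untreated (left) and between genotypes (right). Filled points had an adjusted p under 0.05, red bars are list medians and the grey line is the median of all genes; the bars for genes with AP-1 sites include Il2, Csf2 and Il2ra, which passed the filter through stimulated arrays only, and without them the medians were 3.47 and 0.87. The medians of 3.47 and 0.87 still include Ccl3, Ifng and Tnf, which also needed a stimulated array to pass. In the kinase list Map3k8 and Mapk8 are filled on opposite sides of 0 between genotypes.

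Within the family, the log2 signals of Fos and Junb ran most alike over the 6 arrays, with a Pearson correlation of 0.96, followed by Fosl2 with Junb at 0.94 and Fos with Jun at 0.93. Jund had correlations between -0.24 and 0.31 with the others. All these values share the same 6 arrays, and both genotype and condition enter them. They therefore do not separate a shared time course from a shared genotype difference, and they carry no test. Fos and Jun in particular differed in time course: Fos was highest at 4 h and the main Jun probe set at 8 h, in both genotypes. Outside the family, the genes most like Fos were Alad (0.996), Cd1d2 (0.995) and Ms4a4c (0.994). Ms4a4c ran at 2411, 6049 and 5133 in wild-type and at 4819, 8762 and 7528 in Nrdp1-/- cells.

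The pattern of Jun was nearest to those of Ddit4 (0.998), Pcna (0.996) and the cyclin gene Ccnd2 (0.996), and that of Junb to Sh3bp2 (0.999), Dph6 (0.993) and Egr2 (0.989). Sh3bp2, which encodes an adaptor protein of receptor signalling, ran at 160, 461 and 266 in wild-type and at 237, 636 and 479 in Nrdp1-/- cells. Fosl2 was nearest to the early response gene Ier5 (0.990), Spin2c (0.985) and 5430416N02Rik (0.980). Jund was nearest to Hspa13 (0.979), Tmem177 (0.977) and Fip1l1 (0.975). Each was picked for the highest correlation among all genes tested outside the family, over 6 points.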

How the data were processed

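The titles put the 6 RNA samples, 1 array each, into groups. The authors deposited signal intensities, and the submitters' processing notes name MAS5 with no version. Every array has the same trimmed mean (2% left out at either end), so a shift shared by most transcripts would not show. Detection calls were not used here.

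Of 45101 probe sets, 64 array controls were left out; 34945 had 1 platform gene symbol, 932 several and 9160 none. By Entrez identifier 34741 matched RefSeq annotation of GRCm38.p6, and 0 symbols changed. A gene's brightest probe set was its main one. The pseudocount in log2(signal + 4.45) is the 10th percentile of the values, and it shrinks the differences of dim genes. Genes that reached the array median on 2 or more arrays were tested. Where all arrays of a condition were below the median, a fold is a lower bound against that median.

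Tests used limma 3.58.1 in R 4.3.3 (eBayes, trend), with additive condition and genotype terms, 2 residual and 8.99 prior degrees of freedom and Benjamini-Hochberg adjustment over all genes tested. The model for genotype by stimulation had 1 residual and infinite prior degrees of freedom. The script was tested on simulated data. The number of arrays limits precision.

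Members and lists were chosen with earlier results of these data known. Up to 4 called genes with the largest changes were named per list and comparison, with 3 genes of most similar pattern per tested member; list genes without a call were named after their values were seen. The reading of the AP-1 site list without 3 genes was added after their values were seen. Promoter sequences are RefSeq's. A planned comparison of the encoded proteins was not run. Alternatives were quantile normalization, median centring, other pseudocounts and filters, other uses of the probe sets, no trend, stimulated arrays alone and each array left out.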

Additional observations from a re-analysis of the deposited data

How the results depend on the processing

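Over all alternatives run for the 5 tested genes, Fos and Jun kept the direction of their change at 4 h, at 8 h and between genotypes, and the main probe sets of Junb and Fosl2 kept theirs at 4 h and between genotypes. The second Fosl2 probe set on its own was at -0.21 between genotypes. Without the intensity trend 1 member was called at 4 h, 1 at 8 h and 0 between genotypes, in place of 4, 3 and 2. With the mean of all probe sets 1 member was called between genotypes, since Jun no longer passed. Leaving out each array in turn gave 1 to 2 members higher between genotypes, and 0 to 1 lower from 4 h to 8 h. Among the 5 tested genes the sign turned for Jund, to -0.38 at 8 h and -0.16 between genotypes with the mean of all probe sets, and 3 others when each array was left out in turn. Those were Jund at 4 h (-0.13 to 0.00051, the latter without the wild-type 4 h array), Jun from 4 h to 8 h (-0.00079 without the wild-type 8 h array, up to 0.46) and Fosl2 at 8 h (-0.0032 without the Nrdp1-/- 8 h array, up to 0.54). The causes were not tested. Over all genes, the counts higher and lower were 868 and 597 at 4 h, 1071 and 1004 at 8 h, 2 and 3 from 4 h to 8 h, 268 and 279 between genotypes, and 10 and 14 for genotype by stimulation. Without the intensity trend they were 83 and 4, 103 and 5, 0 and 0, 42 and 57, and 0 and 0. Median centring gave 386 lower at 4 h, 7 and 33 from 4 h to 8 h, and 5 and 8 for genotype by stimulation, where quantile normalization gave 4 and 4. The mean of all probe sets gave 302 lower at 4 h, 435 lower at 8 h, 1 higher from 4 h to 8 h, 175 and 181 between genotypes, and 0 and 0 for genotype by stimulation. Probe sets tested singly gave 441 higher between genotypes, 1 higher from 4 h to 8 h, and 6 and 6 for genotype by stimulation. A pseudocount at the 30th percentile gave 8 lower from 4 h to 8 h. Leaving out an array gave as few as 577 higher at 4 h and 686 higher at 8 h, 218 to 936 lower at 4 h, 350 to 1533 lower at 8 h, and 17 to 46 higher and 13 to 77 lower from 4 h to 8 h. The genotype by stimulation model could not be fitted with an array left out, since no residual degree of freedom remained. Fosb and Fosl1 were below the array median on 5 of 6 arrays, which limits what can be read from them.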
